A study of Mus musculus with 8 samples.

Results

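High-tag pile-up peaks are the peaks of Klf6 ChIP-seq in which 50 or more sequenced fragments (tags) were counted on chr1 to chr19. They were chosen by that count alone, in any of the 4 deposited peak lists, and peaks of different lists at most 500 bp apart were joined into a locus. The rule selected 284 of 31973 peaks and 154 of 20512 loci. Klf6 ChIP was performed in oligodendrocyte progenitors (OLP) and in immature oligodendrocytes (iOL), with 2 biological replicates (A and B) of each stage. All cells came from C57BL/6 mice and were, by the study's methods, purified with an antibody to PDGFRa from cortices of pups aged 6 to 7 days. OLP were cultured with the mitogens PDGF-AA and bFGF at 10 and 20 ng/ml, and iOL were cells that received T3 at 40 ng/ml for 18 h. No genotype was changed and all 4 ChIP samples used the same Klf6 antibody (Santa Cruz, SC-7158X). The 4 input samples were not analysed here as files of their own, and the lists hold no expression values against which the cell type could be checked.

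Klf6 is a zinc-finger transcription factor that binds GC-rich and CACCC-type DNA, and ChIP recovers the DNA that its antibody pulls down. Fragments that come from a sequence with many genomic copies, but few copies in the reference assembly, are all placed on those few copies and pile up there. Families known for such pile-ups are the satellite DNA of centromeres, telomeric repeats, the ribosomal RNA genes, and nuclear copies of mitochondrial DNA. Others are the tandem genes of small nuclear RNAs (snRNA), which work in splicing, and of small nucleolar RNAs (snoRNA), which guide rRNA processing.

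The counts that follow rest on the tags used for the choice and are a description. OLP A had 100 peaks of 50 or more tags among 10781, OLP B 60 of 7069, iOL A 75 of 8912 and iOL B 49 of 5211, that is 0.842% to 0.940% of each list. These peaks held 18.0% of all tags in peaks in OLP A, 12.7% in OLP B, 18.1% in iOL A and 20.7% in iOL B. All tags in peaks came to 126838, 108230, 104302 and 96300 in these samples, and the depth of the libraries themselves is not given in the sources used here. The number of high-tag peaks averaged 80 ± 28.3 in OLP and 62.0 ± 18.4 in iOL (SD, n = 2 each). Whether the stages differed by these 18 peaks could not be settled, since 2 against 2 samples cannot give an exact two-sided permutation p below 0.33 (here p = 0.67).

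The sequences of 7 stretches are short windows of high-tag loci and need not resemble the rest of their peaks. They were read from the mm9 assembly (NCBIM37), 5′ to 3′ on the plus strand, and were chosen from the loci with the most tags and from those with the highest fold enrichment. In the first 3, taken around the summit, capitals mark bases inside a 32-base stretch that occurs more than once in the genome. Over the whole peak, 14.4% of 32-base stretches were repeated at Rn45s, 97.7% at the mitochondrial-like locus and 39.4% upstream of Ly6c1.
Rn45s locus, chr17:39984108-39984228: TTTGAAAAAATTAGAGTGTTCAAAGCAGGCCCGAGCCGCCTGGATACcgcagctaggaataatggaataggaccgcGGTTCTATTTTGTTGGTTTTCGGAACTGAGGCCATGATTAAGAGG
Mitochondrial-like locus, chr1:24619591-24619711: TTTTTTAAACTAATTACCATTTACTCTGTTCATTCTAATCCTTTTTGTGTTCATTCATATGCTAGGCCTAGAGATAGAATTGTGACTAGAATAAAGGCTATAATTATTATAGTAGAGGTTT
Locus upstream of Ly6c1, chr15:74917147-74917267: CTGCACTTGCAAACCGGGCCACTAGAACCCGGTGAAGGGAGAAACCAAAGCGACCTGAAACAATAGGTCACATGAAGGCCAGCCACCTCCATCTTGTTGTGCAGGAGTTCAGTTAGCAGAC
In the next, around the summit of a chr10 locus, capitals and lower case alternate every 19 bases, the shift at which the sequence best matched itself.
Tandem repeat, chr10:7233581-7233701: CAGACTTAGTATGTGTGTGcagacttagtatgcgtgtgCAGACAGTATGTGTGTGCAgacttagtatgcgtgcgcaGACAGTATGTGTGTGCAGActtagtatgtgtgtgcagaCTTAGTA
In the next, from the locus with the highest fold enrichment, capitals mark each copy of the 5-base unit CCATT, of which there are 18.
CCATT repeat, chr17:4626381-4626501: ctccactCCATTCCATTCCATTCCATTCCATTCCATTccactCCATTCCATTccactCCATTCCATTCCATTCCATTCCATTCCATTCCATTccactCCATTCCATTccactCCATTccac
The last 2 are an aligned pair of satellite-type loci, in which capitals mark the bases that differ. They were 97.5% identical over 121 bases.
Satellite-type, chr2:98507033-98507153: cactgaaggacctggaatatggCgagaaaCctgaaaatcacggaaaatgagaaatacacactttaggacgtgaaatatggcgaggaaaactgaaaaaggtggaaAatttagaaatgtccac
Satellite-type, chr9:35113039-35113159: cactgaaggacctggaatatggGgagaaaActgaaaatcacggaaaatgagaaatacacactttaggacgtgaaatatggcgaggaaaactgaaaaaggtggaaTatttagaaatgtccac

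The 154 loci fell into 9 sequence or position groups that held 95 loci, and 59 remained outside them. The groups were 24 satellite-type loci, 6 similar to mitochondrial DNA, 3 similar to the Rn45s locus, 11 in an array on chr6, 5 with telomeric repeats, 7 with other tandem repeats, 8 at snRNA or snoRNA genes, 13 in a cluster on chr4 and 18 in a cluster on chr8. They were set up after the sequences had been seen and are a description. By sequence alone, 91 of 154 loci (59.1%) aligned over at least 50% of the shorter peak with another high-tag locus, in 24 sets of 2 to 24 loci. Members of a set share sequence, so their counts are not independent.

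High tag counts went with wide peaks and low fold enrichment, the ratio of tags over the level expected from input. A longer peak can hold more tags, and fold enrichment is computed from tags. Both are thus tied to the choice by tags, and the contrasts below are a description. The peak with the most tags in each high-tag locus had a median length of 606 bp, against 154 bp over all loci, and 128 of 154 (83.1%) were longer than 300 bp, against 1.63% of all loci. Its median fold enrichment was 4.40, against 11.8 over all loci. Fold enrichment was under 10 in 146 of 154 high-tag loci (94.8%) and in 37.4% of all loci. By sample, the medians of high-tag peaks were 5.54 in OLP A, 4.13 in OLP B, 4.98 in iOL A and 3.93 in iOL B, against 14.6, 9.70, 14.9 and 10.6 over all peaks of each list. In the plot of fold enrichment against tags most peaks under 50 tags rise along a straight edge, and nearly all high-tag peaks lie below its continuation.

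**Figure D1:**
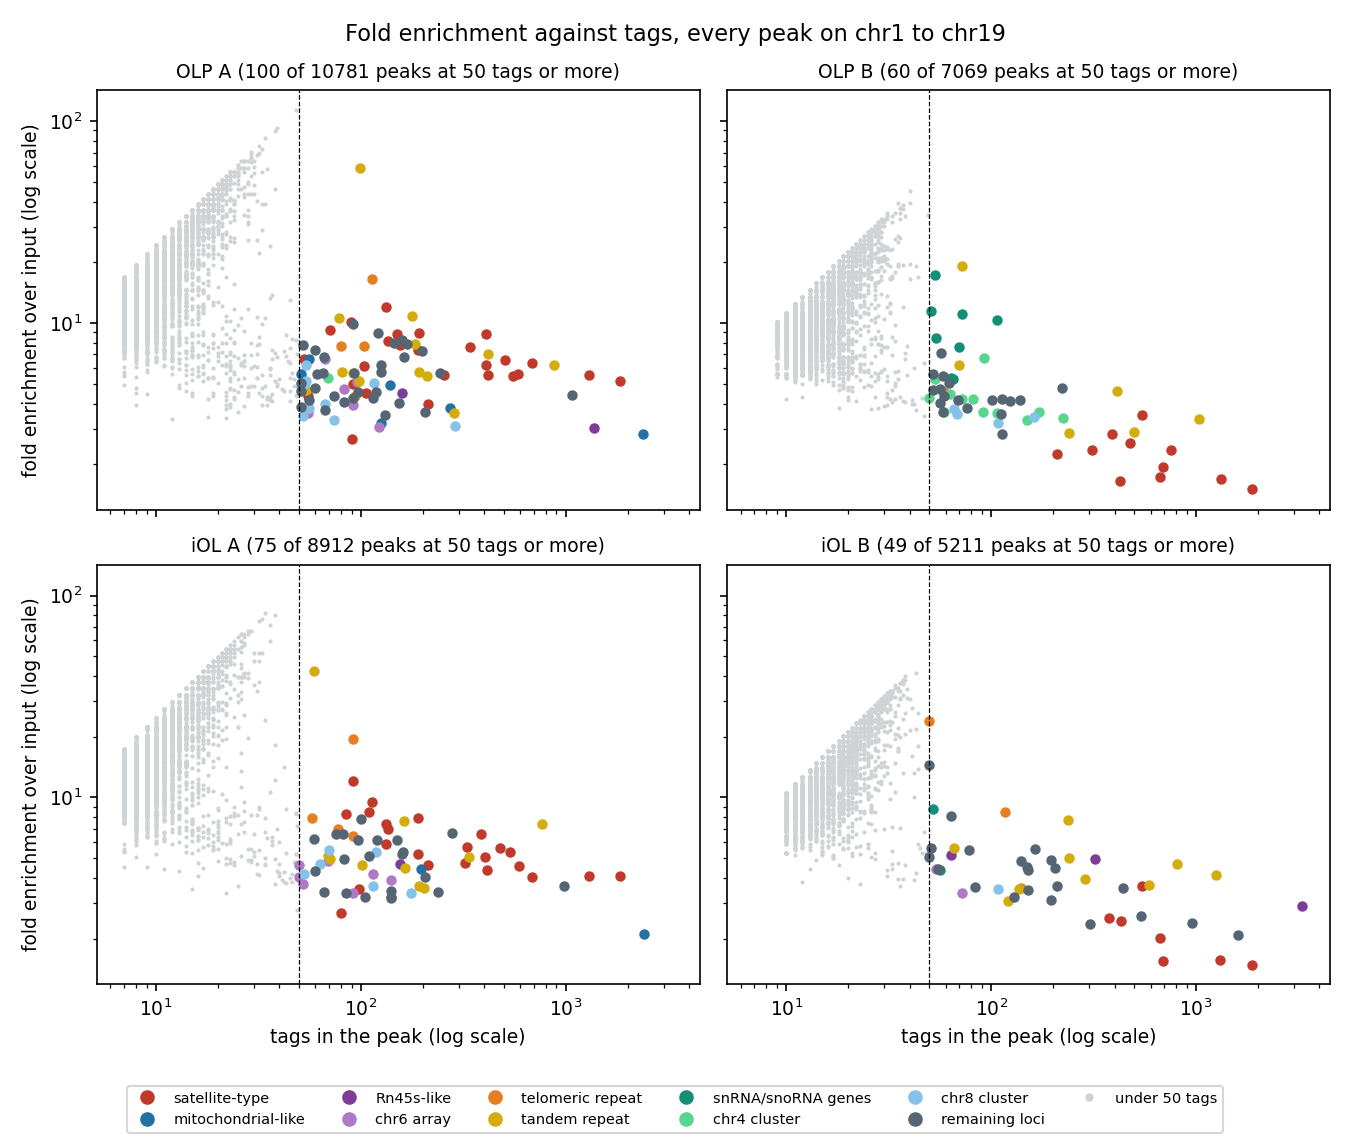
Fold enrichment over input (y axis, log scale) against tags (x axis, log scale) for every peak on chr1 to chr19, with a panel for each sample. Grey points have under 50 tags, coloured points are the high-tag peaks by sequence group, and the dashed line stands at 50 tags; the high-tag medians of 3.93 to 5.54 lie below the list medians of 9.70 to 14.9.

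Repeated sequence was common among high-tag loci, but not more common than in the lists as a whole. More than 50% of the 32-base stretches occurred more than once in the genome in 105 of 154 high-tag loci (68.2%, 95% Wilson interval 60.5 to 75%) and in 77.3% of all loci. The distributions differed in shape. The median share of repeated stretches was 79.2% in high-tag loci and 99.1% in all loci, and a stretch had a median of 3 genomic copies in high-tag loci against 60 in all loci. No high-tag locus was free of repeated stretches, whereas 17.2% of all loci were. A longer peak holds more stretches and so more room for a repeated one. The median lengths were 606 bp in high-tag loci and 154 bp in all loci, and loci were not matched for length. The lowest share among high-tag loci was 5.08%.

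**Figure D2:**
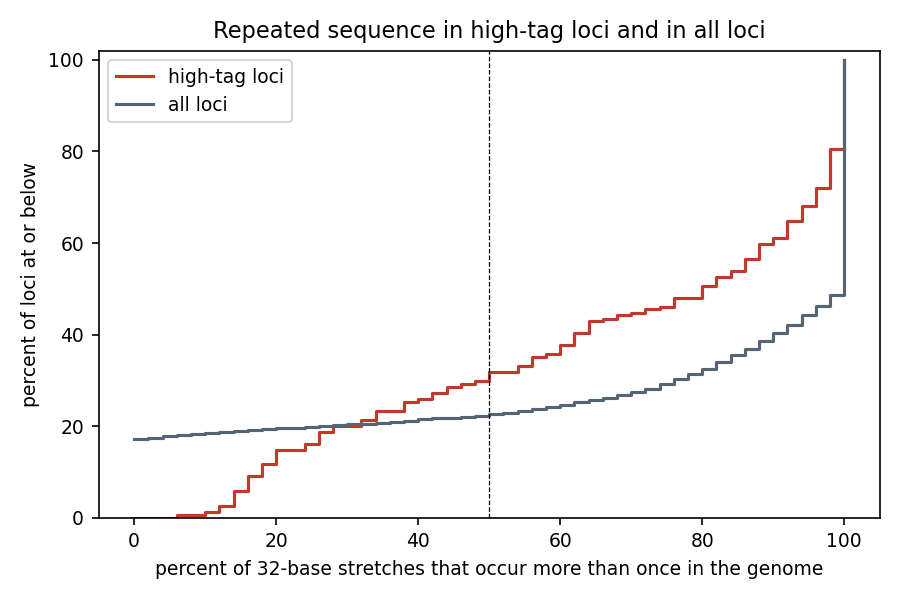
Cumulative percent of loci (y axis) at or below each percent of 32-base stretches that occur more than once in the genome (x axis), for the 154 high-tag loci and all 20512 loci. The line of all loci starts at 17.2% whereas that of high-tag loci starts at 0. At 50% (dashed) the lines stand at 31.8% for high-tag loci and 22.7% for all loci. Loci were not matched for peak length, with medians of 606 bp and 154 bp.

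The satellite-type group was the largest set of similar sequence, with 24 loci on 13 chromosomes. Major satellite DNA, the main repeat around mouse centromeres, is a tandem array whose unit is itself built of shorter, diverged parts. The shift at which these loci best matched themselves was 58 to 60 bases in 5 loci, 2 such lengths in 5 and 4 such lengths in 1. It fell on these lengths in 0 of the other 130 high-tag loci and in 2.79% of all loci outside the group. The match was weak in some of these 11 satellite-type loci. The share of positions that matched ran from 0.316 (chr2:98503790-98504342) to 0.521 (chr11:3003621-3004859). Each of the other 23 loci aligned with the chr2:98506306-98507576 locus, at 74.8% to 95.6% identity (median 82.1%). Exactly repeated 32-base stretches made up 11.5% to 61.3% of these loci, and more than 50% in 5 of 24. GC content around the summit was 32.3% to 44.3%. Of the 24 loci, 5 lay within 500 kb of the first sequenced base of their chromosome (20.8%), as did 9.74% of all high-tag loci and 0.834% of all loci. Among these 5, the loci at chr11:3000300-3000701, chr11:3001217-3003038 and chr11:3003621-3004859 were direct neighbours, so the 5 are not separate places.

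Tag counts at the highest satellite-type loci were almost the same in the 4 samples. At chr2:98506306-98507576 the lists gave 1847 tags in OLP A, 1873 in OLP B, 1841 in iOL A and 1877 in iOL B. At chr2:98502302-98503213 they gave 1301, 1319, 1301 and 1315 tags in the same order, and at chr9:35112685-35113266 684, 692, 682 and 688. The SD over the 4 samples was 18.1, 9.38 and 4.43 tags at these loci. Over the 7 satellite-type loci with a peak in every sample, the highest sample exceeded the lowest by a median ratio of 1.03 (1.01 to 1.42). In the other 6 high-tag loci of all 4 lists this median was 1.71. These are the tags by which the loci were chosen, so the ratios are a description.

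The fold enrichment of these same loci split by replicate letter. At chr2:98506306-98507576 the A samples gave 5.18 (OLP) and 4.10 (iOL), but the B samples 1.51 and 1.48. The mean of the A samples exceeded that of the B samples 2.17 to 3.10 times in the 7 loci, with a median of 2.72, against a median of 1.74 over the 1552 loci. All 24 loci had a peak in OLP A and 23 in iOL A, against 11 in OLP B and 7 in iOL B. Each of the 24 had 53 or more tags in OLP A, so its listing there followed from the choice by tags. Of all loci, 50.8% and 42.1% had a peak in these A samples (OLP and iOL) and 33.8% and 24.9% in the B samples. A samples alone listed 13 of the 24, and 51.9% of all loci. Tags were dense at these loci, and the largest density over all peaks was 1.66 tags per bp in OLP A, 1.58 in OLP B, 1.70 in iOL A and 1.64 in iOL B. A limit of 1 tag per position and strand would allow at most 2 tags per bp. Whether such a limit was used is not given in the sources used here, and its part in these counts was not tested.

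**Figure D3:**
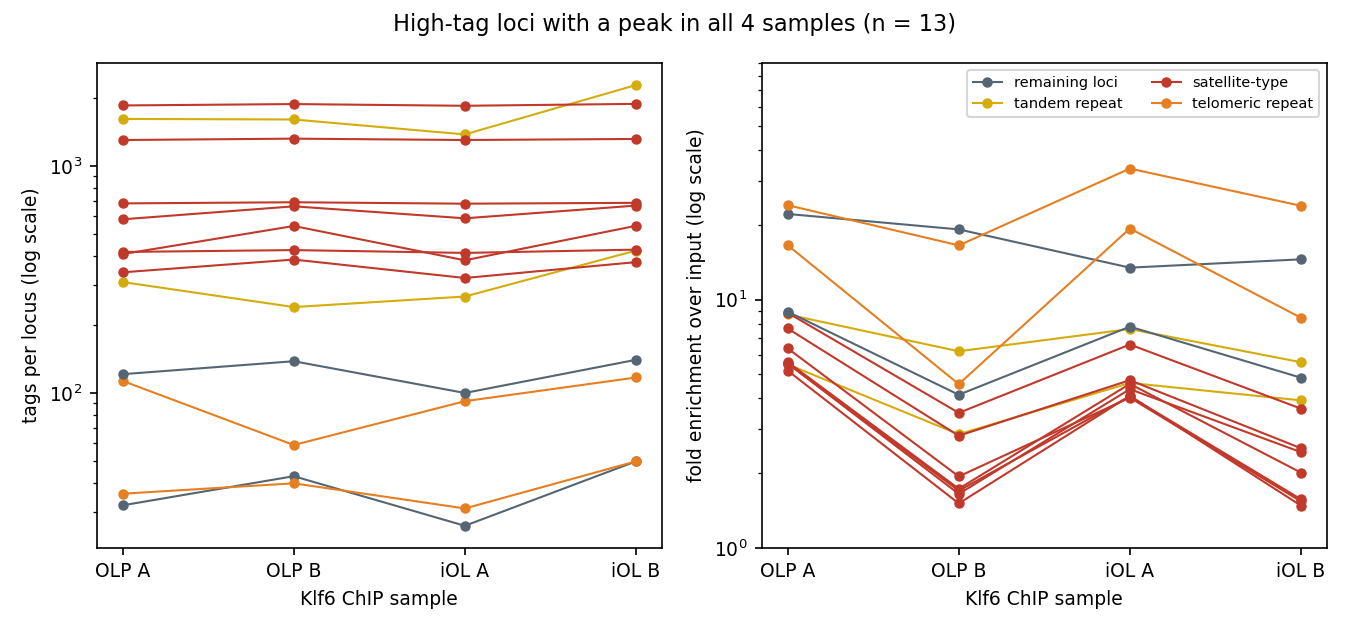
Tags summed over the locus (left) and largest fold enrichment over input (right), both on log scales, in the 4 samples (x axis) for the 13 high-tag loci with a peak in every sample, with a line per locus coloured by group. The highest satellite-type lines are flat in tags, at 1841 to 1877 in the topmost, and fall in fold enrichment from 5.18 and 4.10 in the A samples to 1.51 and 1.48 in the B samples.

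In the telomeric group, 5 loci on 5 chromosomes held at least 3 telomeric units in a row on either strand, as did 0.366% of all loci. Telomeric repeats cap chromosome ends, and copies also lie inside chromosomes. All 5 were listed in both A samples, while OLP B listed 2 and iOL B 3. Of all loci, the A lists held 50.8% (OLP) and 42.1% (iOL), and the B lists 33.8% and 24.9%. Where a peak had 50 or more tags, its listing in that sample followed from the choice by tags. This held in both A samples for the loci on chr2, chr9 and chr12. It also held for the chr3 locus in iOL A, the chr12 locus in OLP B and all 3 listings in iOL B. The chr13:111393186-111393431 locus had few tags for a high-tag locus, 36 in OLP A, 40 in OLP B, 31 in iOL A and 50 in iOL B. Its fold enrichment was high in every sample, at 24.05, 16.56, 33.78 and 23.92. The chr12:94815340-94815778 locus had 113, 59, 92 and 117 tags, lowest in OLP B, with 16.59, 4.57, 19.37 and 8.46-fold enrichment. The remaining loci of the group, on chr2, chr3 and chr9, reached 140, 61 and 80 tags.

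Another 7 loci outside the groups above and the clusters on chr4 and chr8 were tandem repeats. In each of those clusters, 1 more locus matched itself at 70% or more of positions. The locus at chr10:7229313-7235308, with its 19-base unit, had 1611 tags in OLP A, 1602 in OLP B, 1377 in iOL A and 2272 in iOL B, and the neighbouring locus at chr10:7236073-7237125 had 308, 239, 266 and 424. iOL B was the highest sample in both. A chr17 locus in an intron of Tcte2 also had a best shift of 19 bases, with 338 tags in OLP A, 204 in iOL A and 810 in iOL B, and was not listed in OLP B. The CCATT repeat at chr17:4626160-4626590 had 99 tags in OLP A, 72 in OLP B and 59 in iOL A and no peak in iOL B. Its fold enrichment of 58.34 in OLP A was the highest of any high-tag peak, with 19.15 in OLP B and 42.18 in iOL A. Runs of 4 or more CCATT units occurred in 0.112% of all loci.

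The highest single count lay in ribosomal DNA. Rn45s encodes the 45S precursor of the large rRNAs, and its peak at chr17:39979935-39985782, with the summit 4228 bp downstream of the start, had 3300 tags in iOL B and 1372 in OLP A, with no peak in OLP B or iOL A. The fold enrichment was 2.89 and 3.01. A copy of its sequence at chr6:3150769 had 320 tags in iOL B, 158 in OLP A and 155 in iOL A, and a copy at chr16:18533237 had 64 tags in iOL B only. All 3 loci were therefore listed in iOL B and none in OLP B, against 24.9% and 33.8% of all loci. Each had 64 or more tags in iOL B, so its listing there followed from the choice by tags. Similarity to this locus was found in 3 of 154 high-tag loci and in 5 of all 20512.

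In the array on chr6, 11 high-tag loci lay within 107 kb (chr6:47602419-47709629 by their highest peaks). The last of them was listed for Rn4.5s, the gene of a rodent 4.5S RNA, at -6460 bp of its start. Nearly every stretch of these loci was repeated, at 96.0% to 100%, with a median of 17.0 copies in each of the 11. They were listed in 10 cases in iOL A, 7 in OLP A, 3 in iOL B and 0 in OLP B. Of all loci, 42.1%, 50.8%, 24.9% and 33.8% had a peak in these samples. Where a peak had 50 or more tags, its listing followed from the choice by tags. In OLP A this held for all 7 but the last, whose highest peak there had 35 tags. In iOL A some peaks had fewer, at 19 or 49 tags. Of the 11 loci, 10 formed 1 set of similar sequence (median identity 98.5%), so these listings are not independent. Tags ran from 55 to 122 in OLP A, from 19 to 159 in iOL A and from 31 to 72 in iOL B. The core CCGCCC or CCACCC, on either strand, occurred somewhere in the peak in all 11 loci and within 100 bases of the summit in 2.

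Mitochondrial sequence accounted for 6 loci, against 8 of all 20512 loci. The chr1:24618293-24623061 locus was 99.94% identical to 4654 bases of the mitochondrial genome, positions 6390 to 11042, which hold mt-Co1, mt-Co2, mt-Atp8, mt-Atp6, mt-Co3, mt-Nd3, mt-Nd4l and mt-Nd4, genes of respiratory chain subunits. It had 2375 tags in OLP A and 2409 in iOL A, at 2.81 and 2.11-fold enrichment, and no peak in either B sample. Of the other 5, the chr2:22442995-22443821 locus had 139 tags in OLP A and 197 in iOL A. The remaining 4 were listed in OLP A only, with 272 tags at chr2:22444691-22445722, 126 at chr12:98299642-98300000, 56 at chr2:69193553-69193809 and 51 at chr5:60434074-60434312. All 6 loci were thus listed in A samples only, as were 51.9% of all loci. Each had 51 or more tags in OLP A, so its listing there followed from the choice by tags. Identity to mitochondrial DNA was 96.90% to 100%.

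The loci at snRNA and snoRNA genes were listed mostly in the B samples. Of these 8 loci, 7 overlapped annotated copies of U2 or U5, RNAs of the spliceosome, or of U3, a snoRNA of rRNA processing, and 1 aligned with U2. All 8 had a peak in OLP B and 6 in iOL B, against 2 in OLP A and 0 in iOL A. Of all loci, 33.8% and 24.9% had a peak in these B samples and 50.8% and 42.1% in the A samples. Each of the 8 had 51 or more tags in OLP B, so its listing there followed from the choice by tags. B samples alone listed 6 of the 8, and 25.1% of all loci. The U2 locus at chr11:101506699-101507330 had 107 tags in OLP B, 56 in iOL B and 22 in OLP A, and the U2-like locus at chr8:73166325-73166674, upstream of Gdf15, had 53, 42 and 16. The 2 U3 loci on chr11 had 51 and 54 tags in OLP B and 52 and 21 in iOL B. The 3 U5 loci had 64, 72 and 65 tags in OLP B. Of these, the 2 on chr9 had 25 and 18 in iOL B, whereas the chr4 locus had no peak there. Their median fold enrichment was the highest of the groups, at 8.60 (5.30 to 17.29), against 4.40 over all high-tag loci. The telomeric group was close, at 7.91 (3.57 to 23.92), and higher among its peaks in OLP B, with a median of 10.6 against 9.42. Of the 8 loci, 7 were not mostly repeated. Over all high-tag loci, an alignment with mitochondrial DNA or an annotated small RNA or rRNA gene was found in 35 (22.7%, interval 16.8 to 30.0%), and in 14.2% of all loci. With the Rn45s sequence included it was found in 38 (24.7%), and again in 14.2% of all loci. A longer peak leaves more room for an alignment, and the median lengths were 606 bp in high-tag loci and 154 bp in all loci.

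On chr4, a cluster of 13 loci lay between 145451566 and 147083103, in a stretch with 2610305D13Rik and the zinc finger gene Zfp534, and all were mostly repeated with a median of 5.00 copies. OLP B listed 12 of them with 50 to 225 tags, OLP A 2, iOL A 1 and iOL B none. Among all loci, 33.8%, 50.8%, 42.1% and 24.9% had a peak in these samples. Since 50 or more tags chose the loci, the listing of these 12 in OLP B followed from the choice. On chr8, 18 loci lay within 290 kb, from 19730816 to 20020901, around 2610005L07Rik, 6820431F20Rik and Gm15319. Here OLP A listed 11, iOL A 7, OLP B 4 and iOL B 1, that is 61.1%, 38.9%, 22.2% and 5.6% of the 18, against 50.8%, 42.1%, 33.8% and 24.9% of all loci. A single list held 13 of 18, a share close to the 71.3% of all loci. The highest was chr8:19928091-19931132, with 289 tags in OLP A and 175 in iOL A. The lone iOL B peak, with 108 tags, lay at -325 bp of the 2610005L07Rik start.

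**Figure D4:**
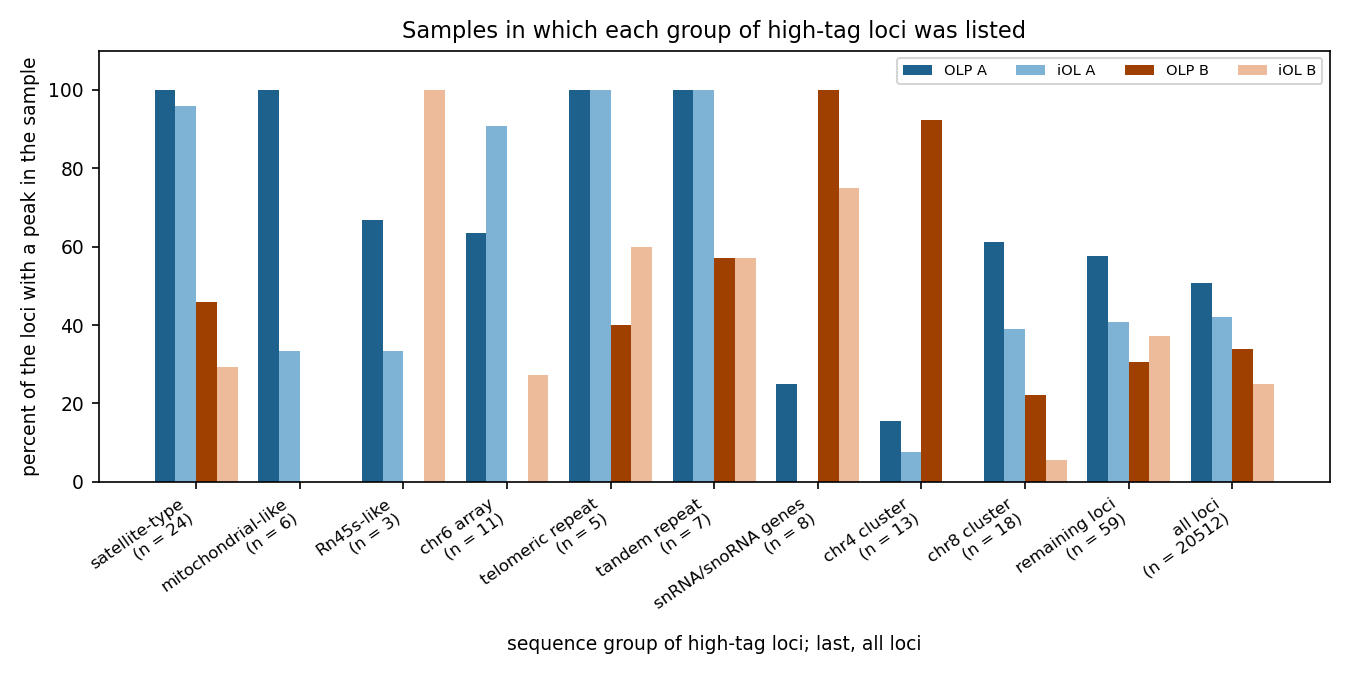
Percent of the loci in each sequence group that had a peak in each sample (y axis from 0), with all loci at the right, blue bars for A samples and brown bars for B samples. Mitochondrial-like loci have bars only for OLP A (100%) and iOL A (33.3%), snRNA and snoRNA loci stand at 100% in OLP B and 0 in iOL A, and the chr4 cluster stands at 92.3% in OLP B and 0 in iOL B.

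Of the 59 loci outside the groups, the highest was chr15:74915912-74917499 upstream of Ly6c1, with 1077 tags in OLP A, 979 in iOL A, 1598 in iOL B and no peak in OLP B. It aligned with 5 other high-tag loci, on chr14, chr16 and chr18. Near the start of chr11, 3 loci within Sfi1 or Drg1 had 302, 538 and 950 tags in iOL B and no peak in another sample. The locus at chr1:106058267-106058522, in which a stretch had a median of 62.0 genomic copies, had 32, 43, 26 and 50 tags in OLP A, OLP B, iOL A and iOL B, at 22.17, 19.21, 13.47 and 14.55-fold enrichment. The locus at chr6:103264496-103264812 had 121, 138, 100 and 140 tags in the same order. A locus at chr10:21861990-21862945 had 244 tags in OLP A, 205 in iOL A and 442 in iOL B, with no peak in OLP B. At the loci on chr1 and chr6, the B samples had more tags than the A samples of the same stage.

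Most high-tag loci in exactly 2 lists were in both A samples. A peak in both A samples and no B sample was found at 37 loci (24%), against 4.79% of all loci, whereas 4 loci (2.60%) had a peak in both B samples only, against 0.868% of all loci. Peaks in both OLP samples only were found at 4 loci (2.60%) and in both iOL samples only at 3 (1.95%), against 2.39% and 1.65% of all loci. Of the 154 loci, 68 (44.2%) were in 1 list, 51 (33.1%) in 2 and 22 (14.3%) in 3, against 71.3%, 13.3% and 7.81% of all loci. The 13 in all 4 are 8.44% of high-tag loci, and 7.57% of all loci had a peak in all 4 lists. These shares rest in part on the choice by tags and are a description. The A lists held 100 (OLP) and 75 (iOL) of the peaks used for the choice, and the B lists 60 and 49. High-tag peaks were also longer, with a median of 606 bp against 154 bp, which makes joining peaks of different lists easier. What differed between the A and B samples of a stage is not given by the labels beyond the letter, and its part in these lists was not tested.

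Each high-tag peak was looked up in the other replicate of its stage. Of the 284 high-tag peaks, 106 had a peak of any height at most 500 bp away in the other replicate of the stage (37.3%, interval 31.9 to 43.1%), and of all peaks 36.3% did. The share was 22 of 100 for OLP A peaks looked up in OLP B and 29 of 60 in the other direction. It was 24 of 75 for iOL A peaks in iOL B and 31 of 49 in the other direction. Among all peaks, 27.5% of those in OLP A were found in OLP B, and 40.9% in the other direction. For all iOL A peaks looked up in iOL B the share was 32.6%, and 54.4% in the other direction. The lower share for A peaks was thus not particular to high-tag peaks. All 22 high-tag OLP A peaks and all 24 high-tag iOL A peaks that were found again had 50 or more tags in the B sample too. Their median counts in the B sample were 419.5 and 402.5 tags, with median fold enrichment of 2.87 and 3.67.

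Tag counts of OLP and iOL were compared at the 1552 loci with a peak in all 4 lists, with edgeR's quasi-likelihood test. No locus passed an adjusted p of 0.05 (0% of the 1552), and 63 had an unadjusted p under 0.05 (1 with DESeq2, which also called 0), none of them among the 13 high-tag loci. The log2 change (iOL over OLP) of the 13 ran from -0.17 to 0.24 with a median of -0.03, and the median over all 1552 was 0.01. The largest change was at chr10:7236073-7237125, 0.24 ± 0.24 (SE, adjusted p = 0.99, edgeR), and at chr2:98506306-98507576 it was -0.03 ± 0.29 (adjusted p = 1, edgeR). Loci listed in fewer samples were not tested, since a peak missing from a list has no count.

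Of the 154 high-tag loci, 19 (12.3%, interval 8.04 to 18.5%) had their summit between -15 kb and +5 kb of a RefSeq transcription start, as did 10.1% of all loci. Only 2 lay within 1 kb of the start. These were the satellite-type locus at -748 bp of Oasl1, of the antiviral OAS family, with 91 tags in OLP A and 80 in iOL A, and the iOL B peak near 2610005L07Rik. The other chr8 cluster loci were at 4930467E23Rik and, in 2 cases, Gm15319, with 74, 67 and 52 tags in OLP A, and those of chr4 at 2610305D13Rik and Zfp534, with 192 and 82 in OLP B. Of the snRNA loci, 4 were in this window. Their listed genes were Arl4d (a small GTPase, 70 tags in OLP B), Kif2c (a microtubule-depolymerizing kinesin, 65), Parp16 (an ADP-ribosyltransferase of the endoplasmic reticulum, 72) and Gdf15 (a stress-induced ligand of the TGF-beta family, 53).

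The remaining genes in this window were spread over the other groups. Abcb11, the bile salt export pump, was listed for a mitochondrial-like locus at -12988 bp, with 56 tags in OLP A. Rn45s, Rn4.5s (86 tags in OLP A) and 2700054A10Rik, next to the chr17 tandem repeat, belong to loci described above. Amph, which acts in endocytosis, had 100 tags upstream in OLP B, at a locus with a median of 19 copies per stretch. Eif4enif1 (which binds the translation factor eIF4E, 950 tags), Txndc11 (129) and Pisd-ps2, a pseudogene (197), were near peaks of iOL B only. The peak listed for Txndc11 overlapped the annotated microRNA mmu-mir-689-2. By the GENCODE annotation of the same build, 9 of 154 summits lay in an exon (5.84%, against 1.21% of all loci), 54 in an intron (35.1%, against 25.1%) and 91 outside genes (59.1%, against 73.7%).

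The Klf core, CCGCCC or CCACCC on either strand within 100 bases of the summit, was present in 6 of 154 high-tag loci (3.90%, interval 1.80 to 8.24%) and in 5.21% of all loci. CCGCCC was found in 4 high-tag loci (2.60%, against 0.619% of all loci) and CCACCC in 2 (1.30%, against 4.69%). At a limit of 40 tags the core was in 16 of 210 loci (7.62%). The 6 loci were the mitochondrial-like locus chr12:98299642-98300000, 2 loci of the chr6 array, the iOL B peaks over mmu-mir-689-2 and mmu-mir-2134-4, and a locus on chr5 listed for Rnf6, with 152 tags in iOL B and 76 in iOL A. The 2 microRNA loci aligned with each other at 92.4% identity, and the 2 loci of the chr6 array belonged to 1 set of similar sequence. Their matches are thus not independent. Searched over the whole peak, the core was in 32 high-tag loci (20.8%) and in 3.77% of all loci, whose peaks were shorter. A match here is a description of the letters and not a bound site.

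The count of 50 tags is an edge within a continuum. Just inside it, OLP A had 51 tags at chr1:85247159-85247754 and chr8:19874982-19875814, OLP B 50 at chr4:146404562-146405112 and 51 at chr11:87256712-87257218. iOL A had 50 at chr6:47615086-47615692 and chr6:47615712-47616269, and iOL B 50 at chr1:106058267-106058502 and chr9:56071383-56071767. Just outside it, OLP A had 49 tags at chr13:100560787-100561108 and chr1:85289490-85290238, and OLP B 49 at chr17:94936215-94936545, with 34.27-fold enrichment, and 47 at chr13:12932300-12932837. iOL A had 49 at chr6:47623984-47624433 and chr6:47695768-47696337, both inside the chr6 array, and iOL B 48 at chr17:3029797-3030099 and 47 at chr2:22600304-22600450. Between 45 and 49 tags there were 15, 4, 10 and 4 peaks in OLP A, OLP B, iOL A and iOL B, and between 50 and 54 tags 12, 7, 4 and 6.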

How the data were processed

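Klf6 ChIP-seq peak lists of 2 OLP and 2 iOL samples were used. Per the labels and the study's methods, the authors used CASAVA 1.8, Bowtie2 (mm9) for alignment and MACS, with input as control and its version not given in the sources used here, for peaks, which were assigned to RefSeq starts. Lists were made sample by sample. The deposited tags are raw counts per peak, the deposited score is 10 times -log10 of the p-value, the deposited fold enrichment is a linear ratio over the expected background, and the deposited false discovery rate is a percent.

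Peaks on chr1 to chr19 at most 500 bp apart formed a locus, described by its peak with the most tags, and tags were summed over a locus. Sequences came from NCBIM37, the assembly of mm9, and genes from GENCODE vM1. Stretches of 32 bases were counted genome-wide on both strands. Similarity was searched with blastn 2.17.0 (E at most 1e-10), against mitochondrial DNA, annotated rRNA, snRNA, snoRNA and misc_RNA genes, the span of the peaks downstream of the Rn45s start, and the high-tag loci themselves. Groups were filled in the order satellite-type, mitochondrial, Rn45s, chr6 array, telomeric, snRNA or snoRNA, clusters, tandem repeats, and a locus stayed in the first that took it. Tandem repeats matched themselves at 70% or more of positions at the best shift of 10 to 500 bases in a window of 1500 bases, held 4 CCATT units in a row, or aligned with such a locus. Clusters were 5 or more further loci with at most 1 Mb between neighbours. The tests were an exact permutation test and edgeR 4.0.16 (quasi-likelihood, TMM, Benjamini-Hochberg adjustment), with DESeq2 1.42.0 as an alternative, in R 4.3.3. Both the counting of stretches and the edgeR step were tested on simulated data. Shares have 95% Wilson intervals, and these cover counting error only. The labels call the replicates biological without naming separate cultures or animals, so p-values measure the spread between these samples.

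The members and lists were chosen with earlier results of these data known. The loci named are the 10 with the most tags, the 5 with the largest fold enrichment among those in all 4 lists, those between -15 kb and +5 kb of a start, those next to the limit of 50 tags, and the largest set of similar sequence. Others were named after their values were seen. The alternatives were other limits of tags, gaps, windows and stretch lengths, the false discovery rate, other scalings, the replicate block and each sample left out. The 4 inputs were not analysed here.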

Additional observations from a re-analysis of the deposited data

Results flagged for a closer look

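Loci with 50 or more tags also occurred on the chromosomes that the choice left out. On chromosome X there were 50 such loci of 2552, with 22 peaks in OLP A, 34 in OLP B, 22 in iOL A and 2 in iOL B. Of these 80 peaks, 56 lay between 120113911 and 123306830 of chromosome X, 33 of them in OLP B, and had a median of 18.0 genomic copies per 32-base stretch. On chromosome Y there were 11 such loci of 88, with 11 peaks in OLP A, 3 in OLP B, 2 in iOL A and 0 in iOL B. The median fold enrichment was 5.14 on chromosome X and 3.04 on chromosome Y. The cause of these counts was not tested.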

How the results depend on the processing

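The 154 loci fell to 94 at a limit of 75 tags, and were 210 at 40 tags, 185 with the top 1% of each list, 151 with a false discovery rate under 5%, 171 and 143 with peaks joined by a shared base or within 1000 bp, and 215 on all chromosomes. At 75 tags, 44.1% of high-tag peaks were found in the other replicate. The share of mostly repeated loci moved from 68.2% to 58.4% with 50-base stretches and to 81.8% with a limit of 25%. The share near a transcription start was 5.19% from 5 kb upstream and 38.3% from 50 kb upstream, where all loci stood at 24.6%. The Klf core was in 7.62% of loci at 40 tags and in 20.8% when searched in the whole peak. An E value of at most 1e-30 left 11.7% similar to mitochondrial DNA or RNA genes. The difference of 18 high-tag peaks between OLP and iOL kept its direction under every alternative, from 3 at 75 tags to 40 on all chromosomes. With the replicate block it was again 18 (exact sign-flip p = 0.5, the smallest that 2 pairs allow). Leaving out each sample in turn gave 117 to 145 loci, 10.3% to 20.5% of them in every remaining list (20.5% without OLP B and 14.7% without iOL B, against 8.44% with all 4 lists, where 3 lists in place of 4 are an easier condition), 63.2% to 68.4% mostly repeated, 10.3% to 12.4% near a start, 3.10% to 5.13% with the Klf core and 18.6% to 25% similar to mitochondrial DNA or RNA genes. edgeR called 0 loci with all samples and 0 to 2 without each sample in turn (2 without OLP A, 1 without iOL B, none of them high-tag), where the lone sample of a stage is assumed to vary like the others. It called 0 with the replicate block, with DESeq2 size factors, without TMM and with a gap of 1000 bp, and DESeq2 called 0. Same-lettered samples did not deviate together in tags across the 1552 loci of all 4 lists (correlation 0.04), so the letters are not shown to pair the samples there. Loci missing from a list were not part of this check. Of all loci, 4.79% were in both A samples only and 0.868% in both B samples only. The shares were 2.39% for both OLP samples only and 1.65% for both iOL samples only. The sequence groups and the search for Rn45s sequence were added after the data had been seen. Tags in peaks are the only depth known, so a locus missing from a list was not called there and is not shown to lack tags.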
